A study of Mus musculus with 9 samples.

Results

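Loss of Mst1 and Mst2 was examined across all genes in the initial segment of the mouse epididymis, by setting double knockout (dKO) libraries against wild-type (WT) ones. The comparison took 3 dKO and 3 WT libraries, 6 of the 9 in the study, chosen by their titles alone. The other 3 libraries came from a triple knockout that lacks Yap besides both kinases (tKO) and entered only the shared estimate of the spread. All mice were C57BL/6 and 4 weeks old. Poly(A) RNA was sequenced from the whole tissue. The labels name no promoter, Cre line or cell type for the deletions, and no allele for the WT mice. Nor do they say that libraries came from separate animals, so p-values measure only the spread between these samples, which may be technical.

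Mst1 and Mst2, encoded by Stk4 and Stk3, are the kinases at the head of the Hippo pathway. They act through the Lats kinases, which phosphorylate the coactivators Yap and Taz and keep them out of the nucleus. The initial segment is the first stretch of the epididymal duct. Its tall principal cells take up testicular fluid and secrete proteins into the lumen, where sperm begin to mature, and a dense bed of capillaries surrounds it.

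Skipped exons of Stk4 and Stk3 were looked up in both groups. Stk4 transcripts that lacked the exon pair at chr2:164086495-164089005 (GRCm38) made up 68.6%, 64.8% and 59.4% of the 2 forms in dKO, and the skipped form was listed at 0 in every WT library. The form that keeps the pair had 2.93, 3.19 and 2.86 FPKM in dKO, against 8.97, 10.6 and 9.49 FPKM in WT. For Stk3 the pair at chr15:35072430-35073221 was lacking in 59.6%, 60.9% and 48.5% in dKO, and that form was likewise listed at 0 in WT. Both exon pairs were picked with their values in view, as the skipped form at 0 in every WT library with the largest dKO sum. The 0 in WT was thus set by the choice, and these values cannot check the labels. Whether these are the targeted exons was not tested. The forms that keep the exons were thus still present in dKO tissue. In bulk RNA, here and for every gene that follows, fewer cells of a type and less RNA per cell cannot be told apart. Summed over all forms, neither Stk4 (log2 fold change of -0.18) nor Stk3 (-0.07) nor Yap1 (0.08) was called changed (limma, Benjamini-Hochberg adjusted p of 0.497, 0.835 and 0.718).

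Values are FPKM, fragment counts scaled for exon length and library size. The number of reads behind each is unknown and no counting interval can be given. The epididymal peroxidase Gpx5 was the highest gene, at 13062 to 14679 FPKM in dKO and 16391 to 17615 FPKM in WT. The germ cell genes Prm1, Prm2, Tnp1 and Tnp2 were among 8 of 16 spermatogenic cell markers listed in none of the 6 libraries. The 16 together summed to 14.5 to 19.5 FPKM in dKO and 16.3 to 24.5 FPKM in WT. Lymphocyte markers summed to 0.567 to 2.30 FPKM in dKO and 0.194 to 2.71 FPKM in WT. Basal cell markers summed to 131 to 142 FPKM in dKO and 162 to 182 FPKM in WT, with 7 of 8 tested members negative and none called. Macrophage markers summed to 69.7 to 109 FPKM in dKO and 81.9 to 95.6 FPKM in WT. WT replicate 1 stood apart: it was the highest WT library in 71.6% of the genes called higher in dKO, against 36.0% of all tested genes, and the lowest in 52.8% of those called lower, against 31.9%.

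Of 12078 tested genes, 458 were called changed at an adjusted p under 0.05, which is 3.79%. Of these, 176 (1.46%) were higher in dKO and 282 (2.33%) lower. The change was at least 1 on the log2 scale in 52 of the higher and 133 of the lower genes. In all 458 the groups did not overlap, as in 27.5% of all tested genes. The called-lower genes together had 8657, 8702 and 7698 FPKM in dKO, or 3.47%, 3.34% and 3.02% of the sum over tested genes. In WT they had 20251, 24861 and 23040 FPKM, or 7.66%, 9.65% and 8.97%. The called-higher genes summed to 8050, 8951 and 9123 FPKM in dKO, against 4885, 3615 and 3746 FPKM in WT. Since calls chose these genes, the sums describe them only. The share called was larger among abundant genes, at 9.33% of 300 genes with a mean above 100 FPKM and 2.18% of 1930 genes under 2 FPKM.

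**Figure D1:**
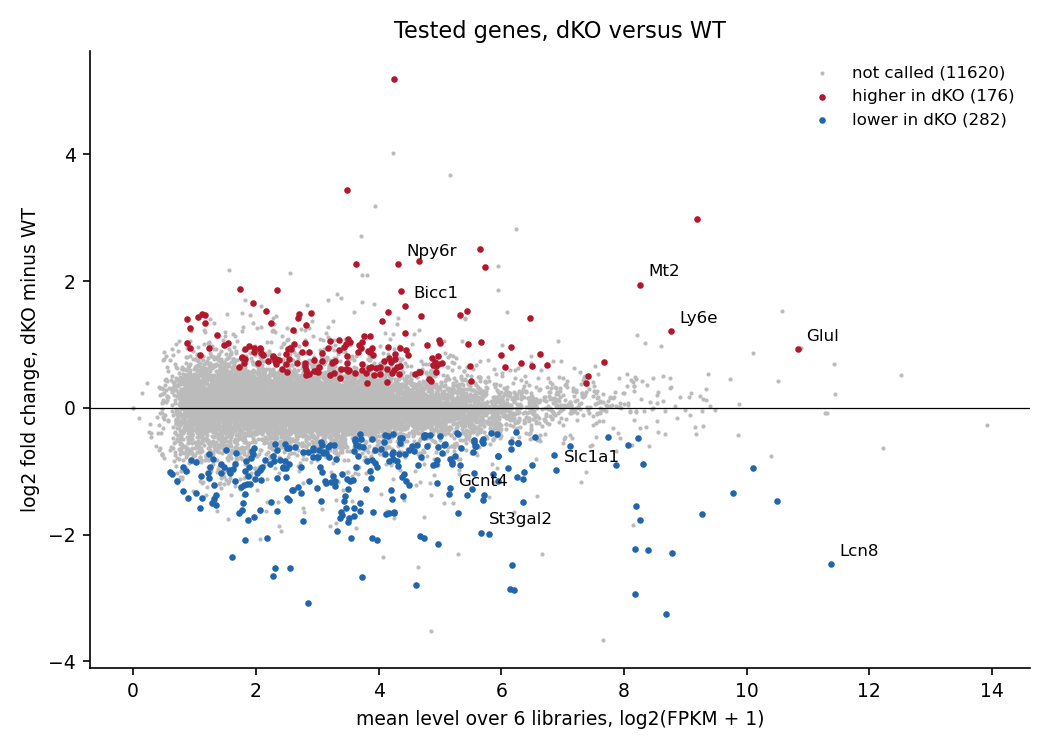
Log2 fold change of dKO minus WT (vertical) against the mean level over the 6 libraries on the log2(FPKM + 1) scale (horizontal), 1 point per tested gene. The 176 genes called higher in dKO are red, the 282 called lower are blue and the rest are grey, and the abundant called genes to the right include Lcn8 (-2.47) below the line and Glul (0.93) above it.

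Leaving out 1 library at a time showed which calls held with fewer libraries. Many calls were lost without any 1 of several libraries, so a lost call need not rest on the library left out. Of the 458 genes, 86 stayed called in all 9 such fits, 12 of them higher and 74 lower in dKO. They include Sumo2 and Ppih on the higher side and Nav3 on the lower. Each of these was listed at 0 in all libraries of a group, which can be a failed estimate. Of those 86, 53 were also called under each of 11 other settings. Without dKO replicates 1, 2 and 3 there were 189, 165 and 134 calls. Without WT replicates 1, 2 and 3 there were 375, 106 and 127. Higher calls were the more often lost: 20 were left without dKO replicate 3, but 180 without WT replicate 1. In what follows, a call that held in all 9 fits is named as such. For the others the largest adjusted p over the 9 fits is given as "up to". The first number in brackets after a gene or its values is its log2 fold change of dKO minus WT, and p-values are limma's, adjusted over all tested genes.

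**Figure D2:**
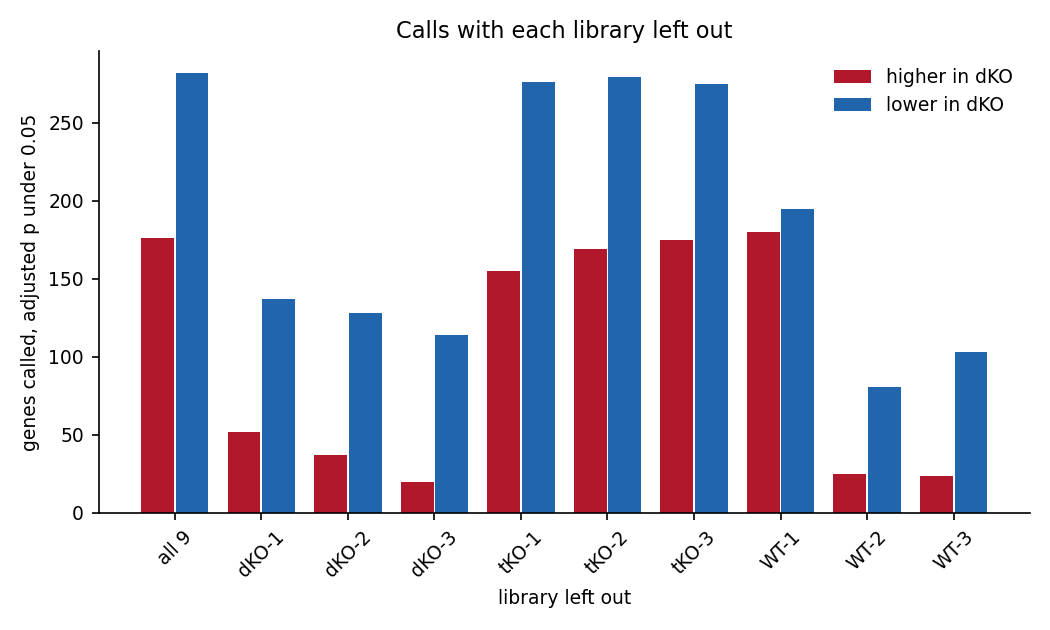
Number of genes called higher (red) and lower (blue) in dKO with all 9 libraries and with each library left out. Counts of higher genes ranged from 20 without dKO-3 to 180 without WT-1, and counts of lower genes from 81 without WT-2 to 279 without tKO-2.

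Enzymes that build glycans on secreted and membrane proteins had more lower calls than any other list. Of 54 tested glycosyltransferase and sialyltransferase genes, 8 were called lower (14.8%, against 2.33% of all tested genes) and none higher, while the median log2 fold change was 0.04, against 0.03 for all tested genes. St3gal2, which adds terminal sialic acid to O-glycans and glycolipids, had 20.8, 16.9 and 21.2 FPKM in dKO, against 68.4, 92.1 and 79.2 FPKM in WT. Every dKO library lay well below every WT one, and St3gal2 fell by 1.97 on the log2 scale (SE 0.13, limma adjusted p 0.000383). Gcnt4, which starts core 2 branches of O-glycans, had 20.6, 17.2 and 18.9 FPKM in dKO, against 45.3, 59.2 and 46.5 FPKM in WT, and fell by 1.36 (SE 0.12, limma adjusted p 0.000827).

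The related St3gal1 had 7.95, 8.44 and 9.08 FPKM in dKO, against 16.7, 14.0 and 14.3 FPKM in WT, and fell by 0.75 (limma adjusted p 0.0113). B4galt4, a galactosyltransferase, had 27.1, 25.5 and 24.96 FPKM in dKO, against 38.5, 39.5 and 40.4 FPKM in WT, and fell by 0.59 (limma adjusted p 0.00996). The calls of St3gal2, Gcnt4, St3gal1 and B4galt4 held in all 9 leave-one-out fits. Gcnt4 and B4galt4 were also called under all 11 other settings, but St3gal2 and St3gal1 had no call from first-exon sums alone. The sialyltransferase St8sia6 fell by 0.64, the core 2 enzyme Gcnt1 by 0.82, the core fucosyltransferase Fut8 by 0.52 and Galnt10, which starts O-glycans, by 0.73. Those 4 calls were lost without either WT replicate 2 or 3 or any dKO replicate, and some without other libraries, with adjusted p up to 0.0762, 0.121, 0.151 and 0.140. B4galnt1 (-0.50, limma adjusted p 0.0522), Mgat5 (-0.66, 0.0562) and Gcnt2 (-0.45, 0.0566) were negative and missed the threshold. Over the 9 fits the list kept 4 to 9 lower calls and no higher one, with 4 left without WT replicate 2.

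**Figure D3:**
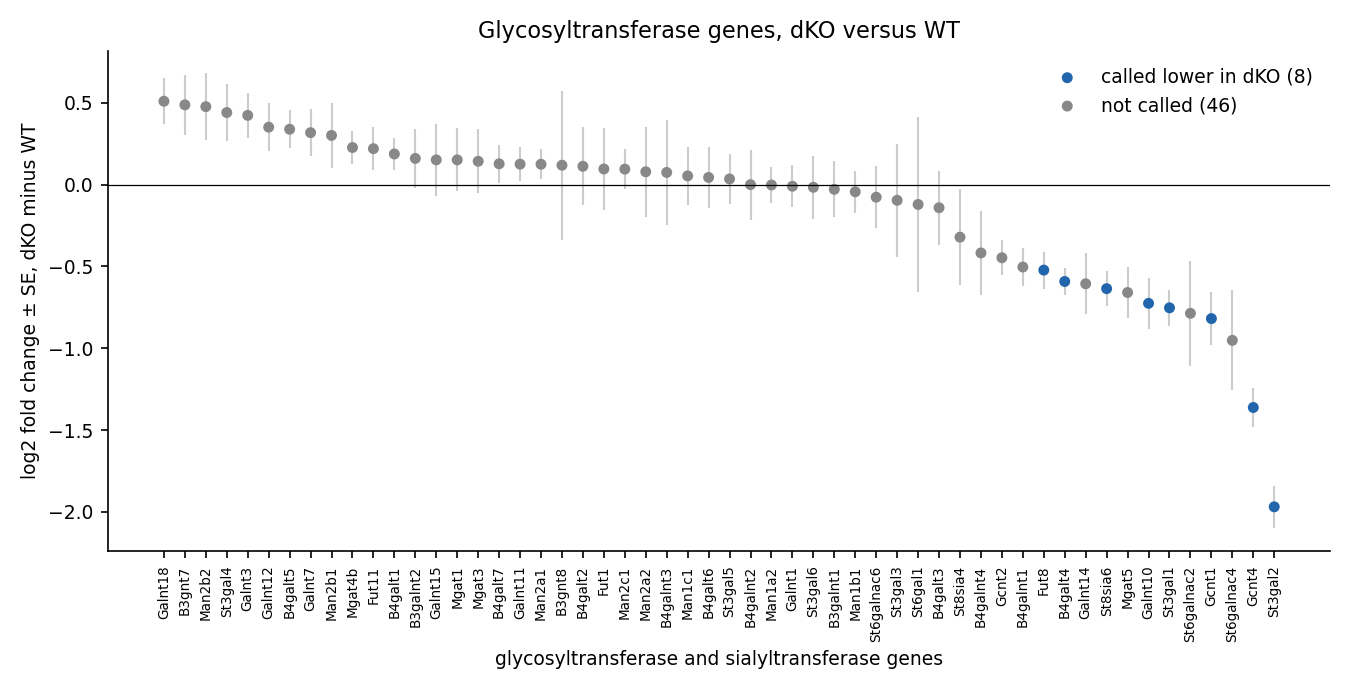
Log2 fold change of dKO minus WT (vertical, bars are the standard error from limma) for 54 tested glycosyltransferase and sialyltransferase genes, ordered by value. The 8 called genes are blue and end with Gcnt4 (-1.36) and St3gal2 (-1.97), and 46 grey genes were not called.

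Carbonic anhydrases interconvert carbon dioxide and bicarbonate. Car2 had 8.18, 6.51 and 8.14 FPKM in dKO, against 21.5, 31.3 and 26.5 FPKM in WT, and fell by 1.66 (SE 0.15, limma adjusted p 0.000932). Car7 had 5.54, 4.54 and 6.71 FPKM in dKO, against 12.1, 17.8 and 15.3 FPKM in WT, and fell by 1.28 (limma adjusted p 0.00545). With Ano10, of the anoctamin family, these were the 3 of 50 tested bicarbonate, chloride and water genes called lower (6.0%, against 2.33% of all tested genes), and none was called higher. All 3 calls held in every leave-one-out fit. Car2 is also a marker of narrow and clear cells, and the 1 called among 7 tested, of which 3 were positive and 4 negative. With Car2 included these markers summed to 47.2 to 48.4 FPKM in dKO and 65.4 to 75.9 FPKM in WT, and the mean of Car2 alone was 18.8 FPKM lower in dKO. Their defining factor Foxi1 was listed in no library of either group, and the part of these cells in the Car2 values was not tested.

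The chloride channel gene Cftr was listed at 3.07, 3.21 and 0 FPKM in dKO, against 5.64, 6.57 and 6.35 FPKM in WT, and was not called (-1.48, limma adjusted p 0.137). Slc1a1, a transporter of glutamate, had 78.7, 81.9 and 74.8 FPKM in dKO, against 161, 156 and 151 FPKM in WT (-0.98, limma adjusted p 0.00121). Slc16a4, of the monocarboxylate transporter family, had 1.79, 1.91 and 2.64 FPKM in dKO, against 7.05, 8.24 and 6.57 FPKM in WT (-1.42, limma adjusted p 0.00158). Both stayed called in each leave-one-out fit, as did Slc45a3 (-1.14) and Abcb9 (-2.06), a peptide transporter of lysosomes.

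Over the 106 tested solute carriers 4 were called lower and 2 higher, 3.8% and 1.9%, against 2.33% and 1.46% of all tested genes. Lower calls ran from 3 without WT replicate 2 or 3 to 7 without tKO replicate 1, with 6 without tKO replicate 3, and higher calls from 0 without any 1 dKO replicate or WT replicate 2 or 3 to 3 without WT replicate 1. The pair called higher was Slc16a10 (0.83), a carrier of aromatic amino acids, and Slc44a1 (0.57), a choline transporter. Slc16a10 lost its call without any 1 of the 6 dKO and WT libraries or tKO replicate 3 (adjusted p up to 0.173), and Slc44a1 without any 1 dKO replicate or WT replicate 2 or 3 (up to 0.132). The fourth lower carrier was the cystine transporter Slc7a11 (-1.34), lost without WT replicate 2 or 3 (up to 0.0640).

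Further carriers and a trafficking motor outside the lists were picked after their values were seen. Mfsd2a, which carries lysophospholipids with omega-3 fatty acids, had 26.0, 22.04 and 21.4 FPKM in dKO, against 55.1, 74.3 and 57.3 FPKM in WT (-1.38, limma adjusted p 0.00162). Slco4c1, an organic anion transporter, had 17.7, 16.0 and 16.0 FPKM in dKO, against 26.4, 27.1 and 26.9 FPKM in WT (-0.66, limma adjusted p 0.00422). Emb, a glycoprotein that accompanies monocarboxylate transporters, had 26.1, 23.9 and 27.2 FPKM in dKO, against 55.4, 70.7 and 65.6 FPKM in WT (-1.27, limma adjusted p 0.000763). Myo5b, a myosin that moves recycling endosomes to the apical membrane, fell by 1.45 (limma adjusted p 0.00673). None of these groups overlapped and all 4 calls held in all 9 fits.

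Receptors and second messenger enzymes changed in both directions. Among 52 tested neuropeptide, G-protein coupled receptor and nitric oxide genes, 4 were called higher (7.7%) and 2 lower (3.8%). The shares of all tested genes were 1.46% and 2.33%. Oxtr, the oxytocin receptor, had 7.22, 8.12 and 8.87 FPKM in dKO, against 24.0, 32.6 and 26.9 FPKM in WT, and fell by 1.66 (SE 0.14, limma adjusted p 0.000575). Adra2a, the alpha-2A adrenergic receptor, had 8.50, 6.72 and 10.5 FPKM in dKO, against 3.21, 1.67 and 2.42 FPKM in WT, and rose by 1.48 (SE 0.22, limma adjusted p 0.0122). Npy6r, a receptor of the neuropeptide Y family, rose by 2.26 (limma adjusted p 0.00936). These 3 calls held in all 9 leave-one-out fits.

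Edn3, which encodes endothelin-3, had 15.01, 14.5 and 14.2 FPKM in dKO, against 8.87, 5.74 and 5.54 FPKM in WT (1.04, limma adjusted p 0.0218). The call was lost without any 1 dKO replicate or without WT replicate 2 or 3 (up to 0.0935). The cyclic AMP phosphodiesterase genes Pde8a and Pde8b moved apart. Pde8a had 5.05, 5.67 and 6.07 FPKM in dKO, against 9.45, 9.87 and 9.83 FPKM in WT (-0.70, limma adjusted p 0.00996, up to 0.0514 without WT replicate 2). Pde8b had 1.70, 1.77 and 2.85 FPKM in dKO, against 0.830, 0.590 and 0.386 FPKM in WT (0.95, limma adjusted p 0.0474), and no leave-one-out fit kept its call (up to 0.151). P2rx7, an ATP-gated channel, rose by 1.23 (limma adjusted p 0.0146, lost without WT replicate 2 or dKO replicate 1 or 3, up to 0.0655).

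Shc4, an adaptor of receptor tyrosine kinases, had 4.40, 4.01 and 3.61 FPKM in dKO, against 14.9, 17.2 and 13.6 FPKM in WT (-1.70, limma adjusted p 0.000383). Dgkg, a diacylglycerol kinase, fell by 1.70 (limma adjusted p 0.00572). The phospholipase Plcg1, chosen after its values were seen and acting below such receptors, fell by 0.90 (limma adjusted p 0.0072). The calls of Shc4, Dgkg and Plcg1 held in the 9 fits. Tgfa, a ligand of the EGF receptor, had 8.26, 8.25 and 8.23 FPKM in dKO, against 4.73, 2.80 and 3.33 FPKM in WT (1.02, limma adjusted p 0.0149), and lost its call without dKO replicate 2 or 3 or WT replicate 2 or 3 (up to 0.0593).

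Transcription factor genes included both DNA-binding and shared subunits of core binding factor. Runx1, read from its last exons, had 4.80, 5.10 and 5.18 FPKM in dKO, against 15.01, 11.8 and 10.9 FPKM in WT, and fell by 1.16 (SE 0.13, limma adjusted p 0.00298) with a call that held in all 9 fits. Runx2 had 5.70, 2.90 and 6.02 FPKM in dKO, against 12.1, 18.9 and 13.7 FPKM in WT (-1.46, limma adjusted p 0.0161, lost without WT replicate 2 or 3, up to 0.0684). Cbfb, the subunit that Runx proteins bind, had 21.1, 19.95 and 23.1 FPKM in dKO, against 29.2, 32.2 and 28.2 FPKM in WT (-0.46, limma adjusted p 0.0293, lost without any 1 of the 6, up to 0.118). These genes were on no list and were named after their values were seen. Rarg, the gamma retinoic acid receptor, had 18.1, 17.99 and 17.6 FPKM in dKO, against 8.28, 8.79 and 10.8 FPKM in WT, and rose by 0.88 (SE 0.12, limma adjusted p 0.00873) in all 9 fits.

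Wnt signalling uses Lef1 and Tcf7 as nuclear partners of beta-catenin. Of 32 tested Wnt genes 3 were called higher (9.4%, against 1.46% of all tested genes) and 1 lower (3.1%, against 2.33%). Lef1 had 4.36, 2.64 and 3.40 FPKM in dKO, against 12.96, 11.8 and 9.05 FPKM in WT, and fell by 1.46 (SE 0.18, limma adjusted p 0.00448), a call kept in all 9 fits. Tcf7 had 19.2, 26.0 and 24.7 FPKM in dKO, against 14.6, 11.7 and 13.2 FPKM in WT, and rose by 0.77 (limma adjusted p 0.0176). The ligands Wnt4 and Wnt7b rose by 0.95 (limma adjusted p 0.014) and 0.79 (0.0227). Without dKO replicate 3 or WT replicate 2 or 3 the calls of Tcf7, Wnt4 and Wnt7b were lost, with p up to 0.0780, 0.0655 and 0.0976. Without dKO replicate 2 Tcf7 and Wnt7b lost theirs as well, and without dKO replicate 1 Wnt7b did.

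Of 41 tested homeobox genes 2 were called lower (4.9%, against 2.33% of all tested genes) and 1 higher (2.4%, against 1.46%). Without WT replicate 1 the list had 0 lower and 2 higher calls, and without WT replicate 2 none of either. Hoxb6 and Hoxb7, neighbours that help set position along the body, fell by 0.45 and 0.56 (limma adjusted p 0.0317 and 0.0421), and Irx1 rose by 0.93 (0.0181). Leaving out single libraries raised these to 0.118, 0.126 and 0.0806. Hoxb6 lost its call without any 1 of the 6 dKO and WT libraries, Hoxb7 without any 1 dKO or tKO replicate or WT replicate 1 or 2, and Irx1 without dKO replicate 2 or 3 or WT replicate 2 or 3.

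**Figure D4:**
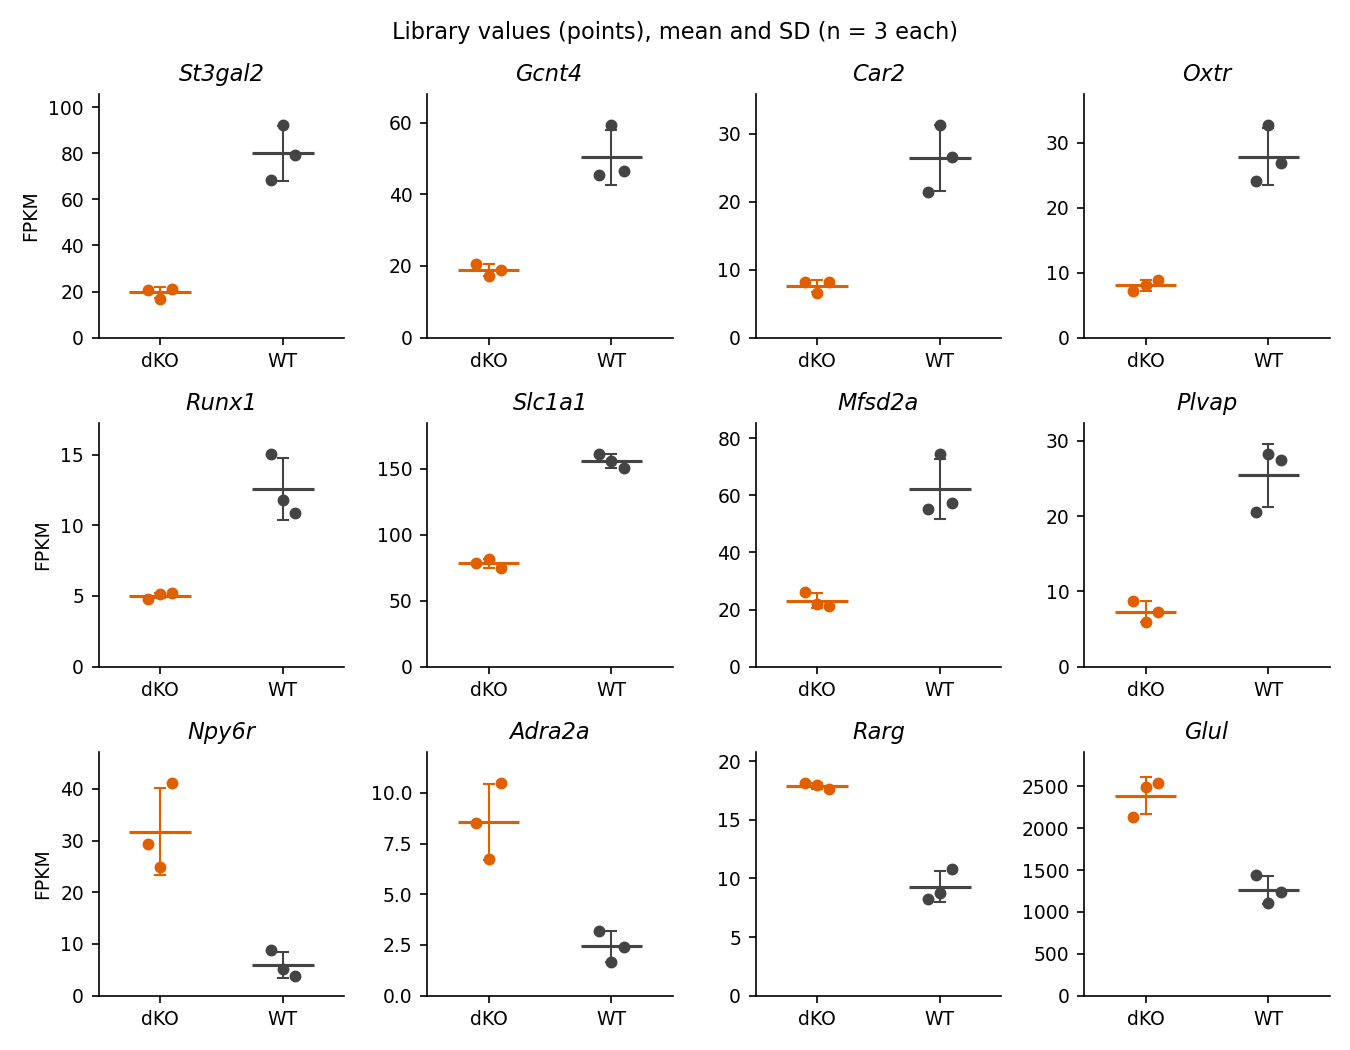
FPKM of 12 genes in each library (points), with the mean and SD of 3 libraries (lines and bars), dKO to the left of WT in each panel and every axis starting at 0. From St3gal2 to Plvap the 3 dKO values lie below the 3 WT values, and from Npy6r to Glul they lie above.

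Guidance molecules and lipoprotein receptors were mostly on the lower side among calls. Of 41 tested semaphorin, plexin, ephrin and guidance receptor genes, 5 were called lower (12.2%), all semaphorins, and 1 higher (2.4%), with a median of -0.12. Among all tested genes 2.33% were called lower and 1.46% higher. Sema3b had 13.4, 12.2 and 11.2 FPKM in dKO, against 26.1, 30.1 and 25.9 FPKM in WT (-1.09, limma adjusted p 0.0151). Sema7a, a membrane-anchored semaphorin, had 2.65, 2.76 and 2.43 FPKM in dKO, against 6.17, 4.81 and 4.49 FPKM in WT (-0.76, limma adjusted p 0.0202). Sema4g (-1.03), Sema5a (-0.71) and Sema4d (-0.57) were lower and Efnb2, the ephrin-B2 ligand, higher (0.56). None of these 6 calls held in all 9 fits. Sema3b lost its call without dKO replicate 2 or 3 or WT replicate 2 or 3 (up to 0.0696). The p of Sema7a, Sema4g, Sema5a, Sema4d and Efnb2 reached 0.0757, 0.0961, 0.155, 0.147 and 0.132, each without dKO replicate 1, 2 or 3 or WT replicate 2 among others. The 5 lower calls became 0 without WT replicate 2.

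Vldlr, the very low density lipoprotein receptor, had 4.97, 2.67 and 6.46 FPKM in dKO, against 12.8, 18.5 and 15.2 FPKM in WT (-1.58, limma adjusted p 0.0151, lost without WT replicate 2 or 3, up to 0.0687). Apoc1, an apolipoprotein, had 24.1, 26.5 and 34.5 FPKM in dKO, against 77.3, 76.4 and 69.5 FPKM in WT (-1.38, limma adjusted p 0.0109, up to 0.0519 without WT replicate 2). With Lrp4 they were the 3 lower calls among 23 tested LDL receptor relatives and apolipoproteins (13%, against 2.33% of all tested genes) and none was higher. Lrp4 fell by 0.77 (limma adjusted p 0.0357) and kept its call in 1 of the 9 fits, the one without WT replicate 1 (up to 0.110). With WT replicate 3 left out the list had 1 lower call. Without WT replicate 2 the list had 0 lower calls.

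Among genes called higher, the largest difference in FPKM was that of Glul, glutamine synthetase, with 2134, 2490 and 2536 FPKM in dKO, against 1439, 1102 and 1237 FPKM in WT. Its log2 fold change was 0.93 (SE 0.14, limma adjusted p 0.014). Ly6e, a GPI-anchored surface protein, had 571, 581 and 673 FPKM in dKO, against 288, 246 and 251 FPKM in WT (1.21, limma adjusted p 0.0168). Neither pair of groups overlapped. Both calls were lost on leaving out dKO replicate 2 or 3 or WT replicate 2 or 3, at p up to 0.0640 and 0.0763. Defb20, a beta-defensin, differed by more FPKM without a call, with 6387, 6926 and 7286 FPKM in dKO, against 5664, 4116 and 4680.2 FPKM in WT (0.52, limma adjusted p 0.195), and so did Clu (0.69, 0.209) and Slc38a5 (0.95, 0.197).

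Metallothioneins bind zinc and copper, and some of them are induced by metals through short promoter motifs. Mt2 had 373, 554 and 502 FPKM in dKO, against 225, 83.9 and 94.4 FPKM in WT (1.94, limma adjusted p 0.0184). Mt3 had 91.5, 62.2 and 106 FPKM in dKO, against 14.3, 26.8 and 13.4 FPKM in WT (2.22, limma adjusted p 0.015). Mt1 had 387, 502 and 417 FPKM in dKO, against 267, 191 and 187 FPKM in WT, and was not called (1.02, limma adjusted p 0.276). Of 22 tested metallothionein and zinc transporter genes 2 were called higher (9.1%, against 1.46% of all tested genes) and none lower (against 2.33%). The list had 13 negative values and a median of -0.10. Mt2 lost its call without dKO replicate 2 or 3 or WT replicate 2 or 3 (up to 0.0731), and Mt3 without WT replicate 3 or dKO replicate 1 or 3 (up to 0.0597). Their promoter windows, from 250 bases before to 50 bases after the RefSeq start (GRCm38.p6), are shown. The pattern searched here for metal response was TGCNCNC, in which N is any base, so a match need not be a metal response motif. Capitals mark its matches on either strand.
Mt2: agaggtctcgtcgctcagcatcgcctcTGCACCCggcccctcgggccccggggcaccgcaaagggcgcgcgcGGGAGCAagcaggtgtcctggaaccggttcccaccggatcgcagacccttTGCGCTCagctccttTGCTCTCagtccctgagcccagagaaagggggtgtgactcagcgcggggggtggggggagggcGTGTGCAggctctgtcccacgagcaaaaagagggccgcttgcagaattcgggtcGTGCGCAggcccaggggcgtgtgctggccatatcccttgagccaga
Mt3: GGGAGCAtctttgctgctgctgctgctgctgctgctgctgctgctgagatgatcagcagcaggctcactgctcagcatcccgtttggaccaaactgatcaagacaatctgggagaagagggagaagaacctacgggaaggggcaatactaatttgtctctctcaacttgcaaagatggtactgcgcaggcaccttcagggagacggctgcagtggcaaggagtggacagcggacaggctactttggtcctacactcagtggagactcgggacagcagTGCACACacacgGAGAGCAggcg

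The Mt2 window (chr8:94172368-94172667, plus strand) held 6 matches and the Mt3 window (chr8:94152357-94152656, plus strand) 3. The motif is short and common: 60.4% of 6378 windows of tested genes held it, as did 69.7% of 109 windows of called-higher and 64.2% of 134 windows of called-lower genes. A match is a run of letters and not a measured site.

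Of 37 tested actin and contractile genes 3 were called higher (8.1%, against 1.46% of all tested genes) and 1 lower (2.7%, against 2.33%). Positive values made up 30 of the 37, and 54.3% of all tested genes. The higher calls, Tpm4, Tagln2 and Myh10, became 0 without any 1 dKO replicate or WT replicate 2 or 3. Other genes of membrane protrusions and the cytoskeleton were called in both directions, with Myo5b and Nav3 among the lower. Prom1, a protein of membrane protrusions, had 119, 136 and 123 FPKM in dKO, against 74.7, 40.1 and 33.4 FPKM in WT (1.41, limma adjusted p 0.033). Pls3, an actin-bundling protein, had 227, 261 and 270 FPKM in dKO, against 163, 145 and 147 FPKM in WT (0.73, limma adjusted p 0.0245). Tpm4, a tropomyosin, had 82.5, 79.0 and 78.6 FPKM in dKO, against 60.6, 49.2 and 44.0 FPKM in WT (0.64, limma adjusted p 0.0266). Tagln2 rose by 0.85 and Myh10, a nonmuscle myosin, by 0.63.

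The calls of Prom1, Pls3, Tpm4, Tagln2 and Myh10 were each lost on leaving out dKO replicate 2 or 3 or WT replicate 2 or 3, and all but that of Pls3 also without dKO replicate 1 (up to 0.127, 0.101, 0.107, 0.155 and 0.127). Calls kept in all 9 fits were Fhl1, a LIM protein, with 88.5, 95.9 and 95.0 FPKM in dKO, against 56.7, 41.3 and 45.4 FPKM in WT (0.96, limma adjusted p 0.00572), and 1 gene chosen after its values were seen. That gene, Tmsb10, binds actin monomers and had 97.7, 100.2 and 96.5 FPKM in dKO, against 61.2, 65.5 and 53.3 FPKM in WT (0.71, limma adjusted p 0.00715). The lower member, Actg2, is smooth muscle actin: it had 137, 137 and 123 FPKM in dKO, against 281, 666 and 498 FPKM in WT (-1.77, limma adjusted p 0.0186, lost without any 1 dKO replicate or WT replicate 2 or 3, up to 0.0710). Actg2 was the 1 call among 12 tested smooth muscle and pericyte markers, of which 7 were positive and 5 negative, with a median of 0.02. With Actg2 included these markers summed to 690 to 919 FPKM in dKO and 891 to 1313 FPKM in WT, and the mean of Actg2 alone was 350 FPKM lower in dKO.

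Of the keratins of simple epithelia, Krt7 and Krt8 were higher, with Krt7 at 34.0, 22.4 and 21.7 FPKM in dKO, against 14.3, 12.9 and 11.4 FPKM in WT (0.94, limma adjusted p 0.0313), and Krt8 at 199, 214 and 183 FPKM in dKO, against 156, 135 and 128 FPKM in WT (0.51, 0.0377). Their partner Krt18 (0.15, 0.528) and the basal cell keratin Krt5 (-0.14, 0.835) were not called, nor was Trp63 (-0.33, 0.138), which marks basal cells. Over the leave-one-out fits the p of Krt7 reached 0.111, with no call without any 1 of the 6 libraries, and that of Krt8 reached 0.139, with no call without dKO replicates, WT replicate 2 or 3 or tKO replicate 1.

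Peptidases were called in both directions. Mmp7, a secreted metalloprotease, had 52.0, 70.1 and 49.6 FPKM in dKO, against 29.6, 14.6 and 18.01 FPKM in WT (1.47, limma adjusted p 0.0285). Timp1, an inhibitor of such proteases, had 34.9, 32.7 and 41.1 FPKM in dKO, against 20.2, 10.6 and 9.26 FPKM in WT (1.44, limma adjusted p 0.019). Folh1, which removes glutamate from peptides and folates, had 56.4, 58.5 and 58.0 FPKM in dKO, against 34.6, 27.6 and 23.5 FPKM in WT (1.01, limma adjusted p 0.0174). Each lost its call without any 1 dKO replicate or WT replicate 2 or 3 (up to 0.107, 0.0864 and 0.0763). Pepd, a cytosolic enzyme that splits dipeptides that end in proline, had 25.6, 26.0 and 26.9 FPKM in dKO, against 38.8, 39.9 and 39.5 FPKM in WT (-0.57, limma adjusted p 0.0108, up to 0.0543 without WT replicate 2). Among 27 tested peptidases 2 were called higher (7.4%, against 1.46% of all tested genes) and 3 lower (11.1%, against 2.33%). Besides Folh1 and Pepd they included Mme (0.82), higher, and Ctsh (-0.89), lower, with p up to 0.157 and 0.0743. Leaving out single libraries gave 0 to 2 higher and 1 to 3 lower calls, with 0 higher without any 1 dKO replicate or WT replicate 2 or 3, and 1 lower without dKO replicate 1 or 2 or WT replicate 2 or 3.

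Secreted proteins of the epididymis made up the list with the largest share of lower calls among those with 10 or more tested members. Of 27 tested, 7 were called lower (25.9%, against 2.33% of all tested genes) and 1 higher (3.7%, against 1.46%). But earlier work on these libraries had singled out many members of the list. Beyond those, Mfge8, a glycoprotein that coats sperm, had 831, 860 and 573 FPKM in dKO, against 1403, 1397 and 1505 FPKM in WT (-0.95, limma adjusted p 0.0416). Its call was lost without any 1 of the 6 dKO and WT libraries or tKO replicate 2 (up to 0.137). Glb1l2, related to beta-galactosidase, had 157, 167 and 160.2 FPKM in dKO, against 290, 340.2 and 283 FPKM in WT (-0.91, limma adjusted p 0.00309), and kept its call in all 9 fits.

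Promoter windows were compared for the genes whose main first exon began within 50 bases of a RefSeq start, 109 called higher, 134 called lower and 6378 tested. CCGGAA, the core of ETS factor sites, was in 31 windows of lower genes (23.1%) and 16 of higher genes (14.7%), against 31.1% of all tested. GGAATG, bound by the TEAD partners of Yap, was in 15 windows of lower genes (11.2%) and 18 of higher genes (16.5%), against 11.6%. These shares were searched on both strands, carry no test, and over all 32851 RefSeq windows were 14.9% and 14.7%.

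Among genes that kept their lower call in all 9 fits, Bricd5 fell by 2.67, Crisp4 by 2.06, Lcn10 by 1.68 and Rnase10 by 1.47 on the log2 scale. They were picked by a promoter motif that is not reported here and are not the largest such falls. Lypd8 (-3.26) and Lipf (-3.07) fell further, and their calls also held in all 9 fits. Crisp4 and Rnase10 encode secreted proteins and Lcn10 a lipocalin, while Bricd5 is named for its BRICHOS domain.

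Endothelial markers had lower summed values in dKO. With Plvap included they came to 45.2 to 63.1 FPKM in dKO and 78.8 to 92.0 FPKM in WT. Of 13 tested members 11 were negative, the median was -0.42 and 2 were called lower (15.4%, against 2.33% of all tested genes). Whether the endothelial share of the RNA differed, and what part that had in the other lower genes, was not tested. Plvap, a protein of fenestrated capillaries, had 8.67, 5.88 and 7.27 FPKM in dKO, against 20.6, 28.2 and 27.5 FPKM in WT (-1.68, limma adjusted p 0.00328), and held in all 9 fits. Tie1, an endothelial receptor, fell by 0.63 (limma adjusted p 0.0255), and its call was lost without any 1 of the 6 libraries (up to 0.0976). The broad endothelial marker Cdh5 had 9.37, 7.36 and 8.49 FPKM in dKO, against 10.1, 10.7 and 11.1 FPKM in WT, and Flt1 had 1.80, 1.09 and 0.785 FPKM in dKO, against 2.97, 2.80 and 2.39 FPKM in WT. Neither was called (limma adjusted p 0.206 and 0.0731). Pgf, a growth factor that binds Flt1 and was picked after its values were seen, had 12.2, 14.3 and 12.8 FPKM in dKO, against 21.5, 21.2 and 24.2 FPKM in WT (-0.72, limma adjusted p 0.00629), a call kept in all 9 fits.

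A few genes were listed at 0 in all libraries of a group. Nav3, a microtubule-binding protein, was at 0 in dKO, against 4.34, 3.48 and 4.50 FPKM in WT, and had 4.16, 3.36 and 3.43 FPKM in tKO. Stac2 and Tas1r1 were at 0 in dKO as well, against 1.20 to 2.22 and 1.24 to 1.96 FPKM in WT. Sumo2, a small protein modifier that cells use generally, had 28.7, 46.7 and 33.6 FPKM in dKO and 0 in every WT library. Ppih, a splicing-associated isomerase, had 1.72, 1.94 and 1.32 FPKM in dKO and 0 in WT. A listed 0 can be a failed estimate, and no fold change is given for these genes.

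Many pathways showed no call. Of 84 lists with a tested member 28 had none called. The 80 cytosolic ribosomal protein genes had a median of 0.02, the 22 cholesterol synthesis genes one of -0.07 and the 37 proteasome genes one of -0.08. The 37 complex I genes of the respiratory chain had 31 negative values and a median of -0.15. The 35 lysosomal hydrolases had 30 positive values, a median of 0.15 and 1 call, the beta-glucuronidase Gusb (0.53, limma adjusted p 0.034), lost without any 1 dKO replicate or WT replicate 2 or 3 (up to 0.131). The 55 splicing factors had 39 positive values and a median of 0.10. Among all tested genes 54.3% were positive, with a median of 0.03. A list without calls does not show that its genes were equal in both groups.

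**Figure D5:**
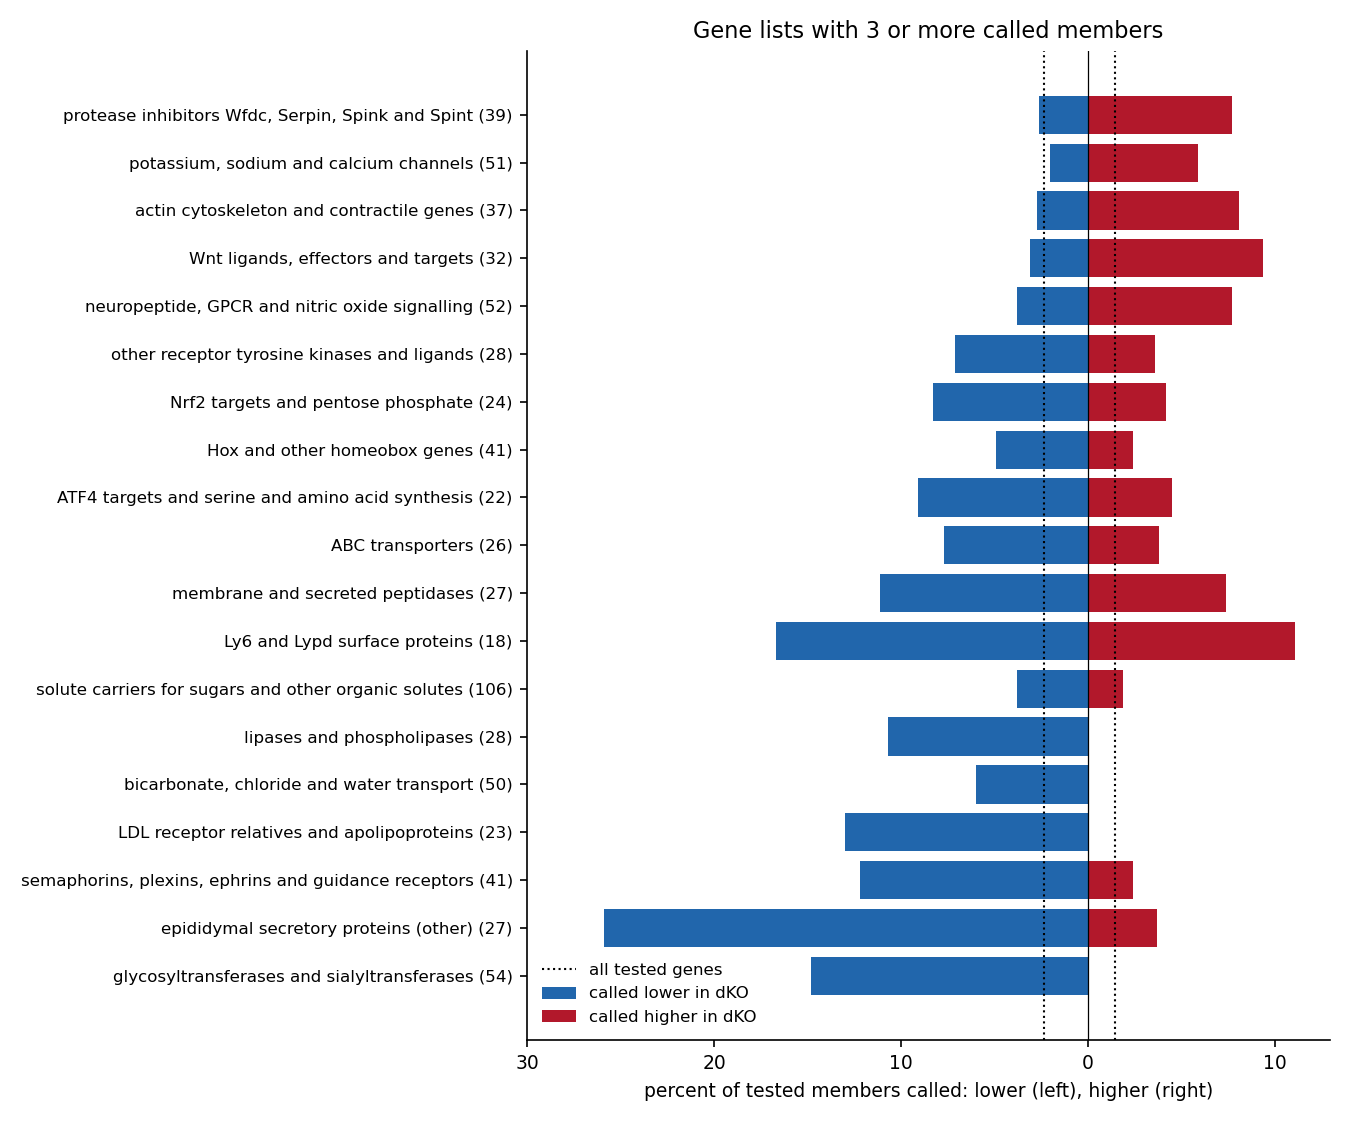
Percent of the tested members of each list called lower (blue, to the left) and higher (red, to the right) in dKO, for the 19 lists with 10 or more tested members and 3 or more called, with the number tested in brackets. Dotted lines mark the shares among all tested genes, 2.33% lower and 1.46% higher, and the 54 glycosyltransferases have lower calls alone.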

How the data were processed

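Poly(A) RNA of the initial segment was measured in 9 libraries, 3 dKO, 3 tKO and 3 WT, grouped by title. The authors deposited 1 file per library with FPKM for transcript events (first exons, last exons, skipped exons and others), per the file headers. The tools DESeq and bcl2fastq (2.17.1.14) appear in the submitters' processing notes with no role. No aligner or genome build is given in the sources used here. Reads per library are unknown.

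Events were placed in genes by GENCODE M21 splice sites (GRCm38), or by the file's gene name within 5000 bases: 81.5% of first-exon and 82.3% of last-exon events matched a splice site. First-exon events were summed per gene, and last-exon events likewise, and the larger class over the 9 files gave the gene's value. Genes that share reads with copies cannot be separated. Genes with 1 FPKM or more in 3 or more libraries were tested. With limma 3.58.1 (R 4.3.3) all 9 libraries entered 1 linear model of log2(FPKM + 1) that lets variance follow the mean (6 residual degrees of freedom), with Benjamini-Hochberg adjustment over all tested genes and calls where adjusted p was under 0.05. Adding 1 before the log understates the change of low genes. Simulated data over 12078 genes took the spread of each gene from all 9 libraries, tKO included. Changes were set only in genes above about 5 FPKM in WT. Of these, 73 of 100 changes of size 1 and 93 of 100 of size 2 (log2) were recovered. Among the unchanged genes 8 were called. Recovery of genes below that level was not tested.

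Members and the 86 gene lists were chosen with earlier results of these data known. Genes named were drawn from sets fixed by rule, and not every member of a set is named. The sets held Stk4, Stk3 and Yap1, genes at 0 in a whole group, marker genes and the 10 highest genes. They also held called list members with up to 4 further members. Among calls of at least 5 FPKM without overlap, they held the 30 largest rises and 30 largest falls in fold. From the same calls came the 15 largest each way in FPKM. Others are said to be chosen after their values were seen. Promoter windows are from RefSeq (GRCm38.p6). Protein features were not analysed here, and 1 promoter motif is not reported here. Python 3.11.15 with pandas 2.3.3 and matplotlib 3.10.9 was used.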

Additional observations from a re-analysis of the deposited data

How the results depend on the processing

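The counts of called genes (458 in all, 176 higher, 282 lower) stayed within 1.5 times under pseudocounts of 0.1 and 5, no filter, a filter at 5 FPKM, median ratio scaling, quantile normalization, the 6 libraries alone, first-exon or last-exon sums alone and no trend, with 336 to 460 calls. Higher genes were 38.4% of calls, 34.8% under median ratio scaling and 36.3% under quantile normalization. With the replicate number as a block (replicate block) there were 235 calls, 70 higher and 165 lower. The numbers share no label beyond the title, and same-numbered dKO and WT libraries did not deviate together (r across genes of -0.004, -0.056 and 0.008), so no pairing was used. Leaving out each of the 9 libraries gave 106 to 450 calls, 20 to 180 higher and 81 to 279 lower. A left-out dKO or WT library leaves 2 in its group, assumed to vary like the rest. Of 343 calls tested from both first and last exons, 341 kept 1 direction in both. The exceptions were Cr1l, at 1.14 from last exons, and Il20rb, at -0.40 from first exons, and for these the cause was not tested. The log2 fold change of Stk3, not called, of -0.07, ran from -0.148 without WT replicate 1 to 0.004 without WT replicate 3 and 0.006 without dKO replicate 1. FPKM hold no depth, so counting error is not known.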

Other observations

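Some further genes of the secretory route, chosen after their values were seen, were called in both directions. Golm1, a Golgi membrane protein, was higher in dKO (log2 fold change of 0.74, limma adjusted p 0.0133), as was Pdia5, a protein disulfide isomerase (0.99, limma adjusted p 0.0198), with p up to 0.0640 and 0.0885 in the leave-one-out fits. Of 31 tested genes of endoplasmic reticulum folding 1 was called higher (3.2%, against 1.46% of all tested genes) and 1 lower (3.2%, against 2.33%). Sec11c, a subunit of the signal peptidase, had 42.1, 45.5 and 50.2 FPKM in dKO, against 92.6, 101 and 76.6 FPKM in WT (-0.95, limma adjusted p 0.0151). Nans, which makes sialic acid, had 56.6, 63.3 and 45.6 FPKM in dKO, against 87.5, 83.0 and 89.0 FPKM in WT (-0.65, limma adjusted p 0.0351). Gorasp1, a Golgi stacking protein, fell by 0.62 (limma adjusted p 0.0164), and Cog4, a subunit of a Golgi tethering complex, by 0.69 (limma adjusted p 0.025). None of these 4 lower calls held in all 9 leave-one-out fits, where the p of Sec11c, Nans, Gorasp1 and Cog4 reached 0.0684, 0.120, 0.0756 and 0.0961, and WT replicate 2 was among the libraries whose absence ended each of the 4.

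On the higher side, Bicc1, an RNA-binding protein, had 27.7, 35.1 and 31.3 FPKM in dKO, against 13.9, 8.03 and 7.89 FPKM in WT (1.60, limma adjusted p 0.00629), and its call held in all 9 fits. Anks6, a protein of the primary cilium, had 4.61, 4.93 and 4.66 FPKM in dKO, against 2.24, 2.44 and 2.64 FPKM in WT (0.74, limma adjusted p 0.0227). Pkhd1, which encodes fibrocystin, had 4.49, 3.64 and 4.11 FPKM in dKO, against 2.22, 1.35 and 1.73 FPKM in WT (0.88, limma adjusted p 0.0226). The p of both Anks6 and Pkhd1 reached 0.0898, and their calls were lost without any 1 dKO replicate or WT replicate 2 or 3. The polycystins Pkd1 (0.18, limma adjusted p 0.711) and Pkd2 (0.13, limma adjusted p 0.653) were not called.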
